A study of Amaranthus palmeri with 48 samples.

Results

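The genes described here were moved in opposite directions by a pair of herbicides, 2,4-D and chlorsulfuron, in the leaf of Amaranthus palmeri, the field weed known as Palmer amaranth. They are 186 of the 14303 gene models that were reliably present in untreated leaves, which is 1.3%, and of 26353 gene models in all. Reliably present meant at least 1 CPM (the gene's count over the library total, scaled to 1000000 counts) in each of the 18 untreated libraries and an untreated mean under 1000 CPM. The genes were chosen by a difference d, the mean log2(CPM + 1) of treated libraries minus that of untreated libraries of the same line and batch, averaged over both lines. A gene was taken when d was at least 0.7 in size for both herbicides and had opposite signs. A limit of 200 genes was not reached. Of the 186 genes, 57 (30.6%) were higher after 2,4-D and lower after chlorsulfuron, called the 2,4-D-high set below. The other 129 (69.4%) were lower after 2,4-D and higher after chlorsulfuron, called the 2,4-D-low set. All 186 also passed the filter on low counts of the test used below and were tested.

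The study asked how plants that resist several herbicides differ in leaf RNA from plants that do not. Leaf RNA was taken 6 h after treatment from plants labelled resistant or susceptible, called lines below, in 48 libraries that formed 16 groups of 3. Batch 1 held resistant and susceptible plants treated with 2,4-D or mesotrione and untreated plants of both lines. Batch 2 held both lines after atrazine or chlorsulfuron with its own untreated plants, and batch 3 held both lines after lactofen with its own untreated plants. Library totals ran from 16583010 to 72979429 counts in batch 1, with 44999718 to 62829178 for batch 2 and 41828563 to 59908233 for batch 3. The sample titles number the libraries, and the same numbers recur in treated and untreated groups of a batch. Some numbers of a line also recur across batches, and the labels do not say whether they mark the same plants. If they do, the p-values between untreated lines, which take all untreated libraries as separate, count some plants in more than 1 batch. Some libraries stood apart. In batch 2 the susceptible libraries numbered 7 did not match plant 7 of batch 1. Of 34 genes at 2 CPM or more in all batch 1 libraries of 1 of the susceptible plants 6 and 7 and at 0.1 CPM or less in all those of the other, they had the state of plant 6 in 32 (94.1%). The susceptible batch 2 libraries numbered 6 had it in 32 or 33, and those numbered 5 in 20 to 23. For this match a gene counted as present in a batch 2 library at any value above 0.1 CPM. Whether libraries 6 and 7 of a susceptible batch 2 group came from 1 plant was not tested. If they did, those groups hold 2 plants, and their p-values for atrazine and chlorsulfuron measure a spread that is partly within a plant. The untreated resistant library 8 of batch 3 had a scaling factor of 0.643, the lowest of all, and the untreated resistant library 5 of batch 1 stood apart for the 2,4-D-low set, as given below.

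2,4-D is a synthetic auxin: it binds the receptors of the plant hormone auxin, which releases auxin-responsive genes from repression and disturbs growth in broadleaf plants. Chlorsulfuron inhibits acetolactate synthase, the first shared enzyme of branched-chain amino acid synthesis, and stops growth in young tissue. Of the other herbicides, atrazine blocks electron transport at photosystem II, mesotrione blocks an enzyme on the way to plastoquinone and tocopherols, and lactofen blocks a step of chlorophyll and haem synthesis so that a photosensitising porphyrin accumulates. The identifiers of the count table were not paired with gene names, products or sequences in the sources used here. The genes are therefore named by identifier, no role is given, lists of auxin, amino acid, photosynthesis or cell type genes were not applied, and the leaf label was not checked against markers. The leading digits of an identifier are read below as a chromosome.

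Opposite movement was the less frequent case among genes that passed the threshold for both herbicides. Of 1386 such genes, 1200 (86.6%) moved the same way, 711 of them higher and 489 lower after both, and the 186 were the remaining 13.4%. In the 2,4-D-high set, d ran from 0.70 to 3.39 after 2,4-D (median 1.27) and from -2.82 to -0.71 after chlorsulfuron (median -1.25). In the 2,4-D-low set it ran from -1.87 to -0.70 after 2,4-D (median -0.88) and from 0.70 to 2.16 after chlorsulfuron (median 0.96). These values chose the genes and are a description only. Each of the 186 genes moved in its own direction in both lines after both herbicides, and 35 genes of the 2,4-D-high set and 82 of the 2,4-D-low set passed 0.7 in each line apart. The mean untreated level had a median of 18.8 CPM over the 2,4-D-high set and 43.6 CPM over the 2,4-D-low set, beside 25.8 CPM over the 14303 genes.

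**Figure D1:**
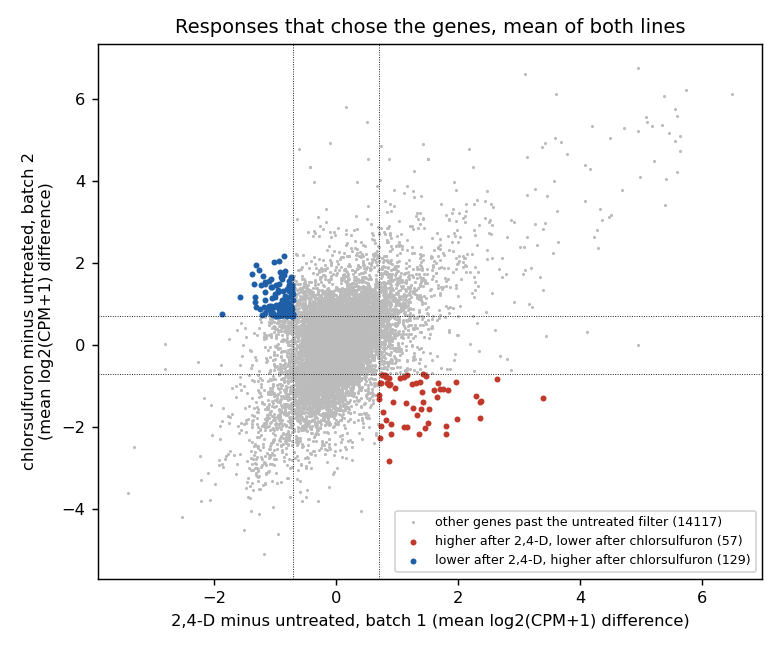
Difference d after 2,4-D (x axis) and after chlorsulfuron (y axis), in mean log2(CPM + 1) treated minus untreated, for 14303 genes. Each point is 1 gene, dotted lines stand at 0.7 and -0.7, and the 57 genes of the 2,4-D-high set (red) and the 129 of the 2,4-D-low set (blue) fill the lower right and upper left corners, which set them apart by construction.

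At the threshold the choice was narrow. The last gene taken into the 2,4-D-high set, AmaPaChr02Ag043930, had a d of 0.70 after 2,4-D and -1.22 after chlorsulfuron. The first left out, AmaPaChr17Ag259870, had 1.10 and -0.696. In the 2,4-D-low set the last gene taken was AmaPaChr06Ag101120, with -0.93 after 2,4-D and 0.703 after chlorsulfuron, and the first left out was AmaPaChr08Ag137180, with -0.79 and 0.6999. In the edgeR quasi-likelihood test with Benjamini-Hochberg adjustment over 20645 genes, averaged over both lines, 34 of the 57 genes were called higher after 2,4-D at an adjusted p under 0.05, beside 8.58% of all genes tested. After chlorsulfuron 51 were called lower, beside 21.1%. Of the 129 genes, 119 were called lower after 2,4-D, beside 7.65%, and 119 higher after chlorsulfuron, beside 25.6%. The choice used both contrasts, so these counts carry no further information.

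The gene with the largest smaller difference in the 2,4-D-high set was AmaPaChr15Ag234680, on chromosome 15, an abundant transcript. It had 1308, 1474 and 1061 CPM in resistant and 1609, 1533 and 1198 CPM in susceptible plants after 2,4-D, against 332, 219 and 384 CPM in untreated resistant and 449.8, 548 and 469 CPM in untreated susceptible plants of batch 1. After chlorsulfuron it had 96.0, 48.2 and 148 CPM in resistant and 167, 70.7 and 81.6 CPM in susceptible plants, against 253, 353 and 303 CPM in untreated resistant and 381, 497 and 494 CPM in untreated susceptible plants of batch 2. In both lines every 2,4-D library lay above, and every chlorsulfuron library below, all untreated libraries of its batch.

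The next in that set, AmaPaChr14Ag214620, was a less abundant transcript. It had 28.9, 32.1 and 24.6 CPM in resistant and 65.9, 33.9 and 29.7 CPM in susceptible plants after 2,4-D, against 6.60, 7.01 and 7.30 CPM in untreated resistant and 12.6, 13.9 and 9.06 CPM in untreated susceptible plants. After chlorsulfuron it had 0.62, 0.637 and 1.05 CPM in resistant and 0.684, 1.76 and 1.26 CPM in susceptible plants, against 7.97, 4.58 and 5.83 CPM in untreated resistant and 9.9, 11.4 and 9.17 CPM in untreated susceptible plants. Again no library of a treated group reached the range of its controls.

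In the 2,4-D-low set AmaPaChr04Ag080260 came first. It had 31.1, 31.8 and 38.7 CPM in resistant and 56.7, 30.9 and 46.3 CPM in susceptible plants after 2,4-D, against 40.5, 167 and 99.0 CPM in untreated resistant and 98.4, 109 and 142 CPM in untreated susceptible plants. After chlorsulfuron it had 316, 452 and 248 CPM in resistant and 267, 415 and 389 CPM in susceptible plants, against 84.7, 99.7 and 143 CPM in untreated resistant and 110.1, 97.5 and 86.4 CPM in untreated susceptible plants. The groups did not overlap, but the untreated resistant library 5 of batch 1, at 40.5 CPM, lay next to the 2,4-D libraries and far from the other two controls.

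AmaPaChr03Ag059410, the next in the 2,4-D-low set, showed the same library more sharply. It had 12.6, 18.6 and 25.5 CPM in resistant and 18.1, 13.6 and 29.7 CPM in susceptible plants after 2,4-D, against 17.4, 79.6 and 57.3 CPM in untreated resistant and 40.8, 48.8 and 89.2 CPM in untreated susceptible plants. After chlorsulfuron it had 112, 155 and 115 CPM in resistant and 83.4, 138 and 121 CPM in susceptible plants, against 34.6, 36.9 and 67.9 CPM in untreated resistant and 38.7, 41.9 and 37.7 CPM in untreated susceptible plants. Here the untreated resistant library 5 of batch 1, at 17.4 CPM, lay within the range of the 2,4-D libraries.

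**Figure D2:**
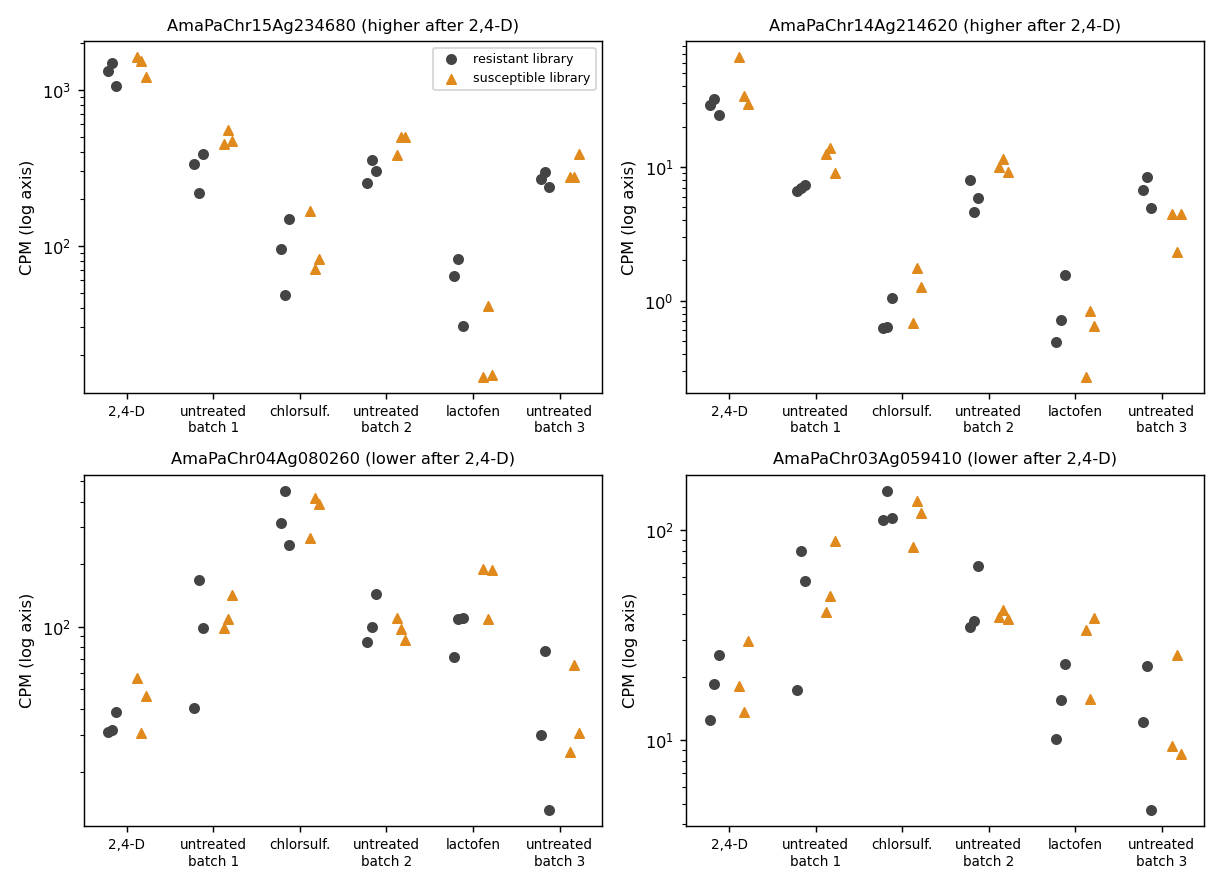
Plain CPM (log axis) of 4 genes in each library after 2,4-D, chlorsulfuron and lactofen, each left of the untreated libraries of its batch. Circles are resistant and triangles susceptible libraries, 3 of each per group. The upper pair belongs to the 2,4-D-high set and lies low after chlorsulfuron and lactofen, and the lower pair belongs to the 2,4-D-low set and has a single low untreated resistant library in batch 1.

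Taken over a whole set, the mean log2(CPM + 1) of the 57 genes was 6.00, 5.87 and 5.60 in resistant and 6.02, 5.70 and 6.00 in susceptible libraries after 2,4-D, against 4.86, 4.03 and 4.52 in untreated resistant and 4.38, 4.73 and 4.62 in untreated susceptible libraries. After chlorsulfuron it was 3.24, 2.88 and 3.39 in resistant and 3.52, 2.88 and 2.87 in susceptible libraries, against 4.41, 4.47 and 4.40 in untreated resistant and 4.41, 4.56 and 4.51 in untreated susceptible libraries. Untreated libraries of the 3 batches lay close together for this set. Those of batch 3 were 4.26, 4.21 and 4.12 in the resistant and 4.10, 4.24 and 4.34 in the susceptible line.

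For the 129 genes the mean log2(CPM + 1) was 4.69, 4.80 and 5.02 in resistant and 4.97, 4.89 and 4.92 in susceptible libraries after 2,4-D, against 4.94, 6.22 and 5.94 in untreated resistant and 5.83, 5.85 and 6.04 in untreated susceptible libraries. After chlorsulfuron it was 6.72, 6.99 and 6.60 in resistant and 6.39, 7.07 and 7.02 in susceptible libraries, against 5.63, 5.62 and 5.85 in untreated resistant and 5.68, 5.67 and 5.69 in untreated susceptible libraries. Untreated libraries differed between batches here. In batch 3 they held 4.86, 5.52 and 4.10 in the resistant and 4.50, 5.36 and 4.77 in the susceptible line, so that 4 of the 6 lay below the highest 2,4-D library, at 5.02. In leaf RNA of this kind, fewer cells of a type and less RNA per cell cannot be told apart.

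**Figure D3:**
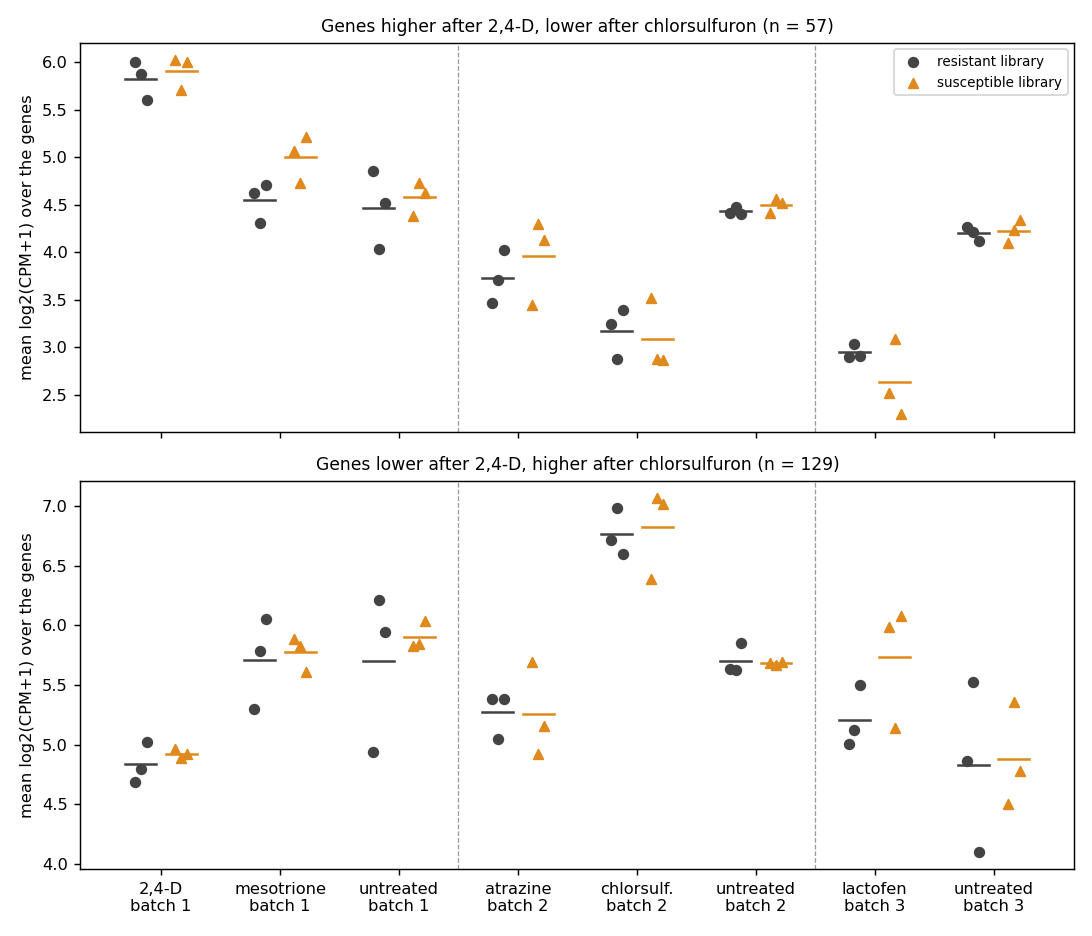
Mean log2(CPM + 1) over the 57 genes of the 2,4-D-high set (top) and the 129 of the 2,4-D-low set (bottom) in each of the 48 libraries, by treatment and batch, with dashed lines between batches. Circles are resistant and triangles susceptible libraries, and bars are means of 3 libraries. Untreated libraries of the 2,4-D-high set stay between 4.03 and 4.86 in all batches, while those of the 2,4-D-low set run from 4.10 to 6.22.

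In some groups, but not in all, the 2,4-D-low set moved together between plants of one group. The untreated resistant library 5 of batch 1 was the lowest of its group for 120 of the 129 genes (93%), against 23.1% of the 14303 genes. It had the highest total of all libraries, 72979429 counts, against 19414318 and 25739390 in the others of its group. Whether depth had a part was not tested. The resistant mesotrione library 5 was the lowest of its group for 114 of the 129 genes (88.4%), against 27.7% of the 14303 genes. The untreated resistant library 8 of batch 3 was the lowest for 115 (89.1%), against 72.6% of the 14303 genes, and the susceptible chlorsulfuron library 5 for 119 (92.2%), against 34.5%. The susceptible lactofen library 5 was the lowest for 108 (83.7%), against 34.3%. After atrazine the susceptible library 6 was the lowest for 106 (82.2%), against 27.7%, and the resistant library 7 for 96 (74.4%), against 44.2%. The resistant chlorsulfuron library 8 was the lowest for 100 (77.5%), against 38.5%. In the remaining groups no library was the lowest for more than 69% of the 129 genes. In untreated susceptible plants of batch 2, libraries 5, 6 and 7 were the lowest for 34.1%, 26.4% and 39.5% of the 129 genes. In susceptible plants after 2,4-D these shares were 24.8%, 44.2% and 31%. The 2,4-D-high set also had such a library. Susceptible atrazine library 5 was the lowest for 48 of its 57 genes (84.2%), against 42.9% of the 14303 genes. Other groups were more even for that set, as in untreated resistant plants of batch 3, with 24.6%, 33.3% and 42.1%. Once each group's mean was removed, the mean pairwise correlation between genes over the 18 untreated libraries was 0.635 in the 2,4-D-low set, 0.157 in the 2,4-D-high set and 0.167 over the 14303 genes. In the 6 untreated libraries of batch 3 alone it was 0.677, 0.0143 and 0.235, in the same order. These correlations are descriptions: the genes share libraries and depth, and untreated libraries entered the choice.

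The choice of untreated libraries mattered for the 2,4-D-low set. Its untreated level in batch 3 minus that in batch 1 had a median of -0.94 in the resistant and -0.998 in the susceptible line (log2), beside -0.28 and -0.29 over the 14303 genes. Set against the batch 3 controls, d of these genes after 2,4-D had a median of 0.08, with 77 positive and 52 negative, while it was -0.88 with the batch 1 controls and -0.85 with those of batch 2. Over the 14303 genes these medians were 0.34, 0.06 and 0.02, so the median of the set lay below that of all genes with each of the controls, while its own sign differed. After chlorsulfuron it stayed positive, with a median of 0.97, 0.96 and 1.90 against the controls of batches 1, 2 and 3, beside 0.17, 0.14 and 0.44 over the 14303 genes. For the 2,4-D-high set all controls gave one direction: the median d after 2,4-D was 1.27, 1.39 and 1.74, and after chlorsulfuron -1.42, -1.25 and -1.04. With batch 3 controls in place of the own batch, the choice would take 103 genes into the 2,4-D-high set, 32 of them from the 57, and 7 into the 2,4-D-low set, 2 of them from the 129. Without the untreated resistant library 5 of batch 1 it would take 88 genes, 55 of them from the 57, and 202 genes, 128 of them from the 129. Without the 3 susceptible libraries numbered 7 of batch 2 it would take 53 and 113 genes, with 50 of the 57 and 112 of the 129.

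Lactofen was in a batch of its own, and the only part its untreated libraries had in the choice was the filter on untreated CPM. The 2,4-D-high set was mostly lower after lactofen, as it was after chlorsulfuron. Averaged over both lines, 40 of the 57 genes (70.2%) fell, 3 rose and 14 were not called. Of all 20645 genes tested, 33.8% fell and 33.7% rose, and of the 14303 genes 41% fell and 34.1% rose. The median log2 change of the set was -1.87, with quartiles at -3.03 and -0.65, beside -0.01 over all genes tested and -0.11 over the 14303. In resistant plants 37 genes fell and 3 rose, and in susceptible plants 37 fell and 2 rose, with 33 lower in both lines. Of all genes tested, 27.6% fell and 26.1% rose in resistant plants, and 29.3% fell and 30.4% rose in susceptible plants. The share of all genes lower in both lines was not counted. For 29 of the 57 genes, every lactofen library lay below every untreated library of its line in both lines, beside 24.4% of the 14303 genes. The mean log2(CPM + 1) of the set was 2.90, 3.04 and 2.91 in resistant and 2.52, 3.09 and 2.30 in susceptible libraries after lactofen, all below the untreated libraries of batch 3 given above.

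In the 2,4-D-low set more genes rose than fell after lactofen, and many were not called. Of the 129 genes, 64 (49.6%) rose, 9 fell and 56 were not called, with a median log2 change of 0.56 and quartiles at 0.04 and 1.19. The share that rose is to be read beside the 34.1% of the 14303 genes. The share that fell, 6.98%, is to be read beside 41% of them. In resistant plants 28 genes (21.7%) rose and 10 (7.75%) fell. Of all genes tested, 26.1% rose and 27.6% fell there, so that both shares in the set were below those of all genes. In susceptible plants 59 (45.7%) rose and 3 (2.33%) fell, beside 30.4% of all genes tested that rose and 29.3% that fell. In both lines 27 genes rose, and the share of all genes that did so was not counted. For 21 of the 129 genes (16.3%) every lactofen library lay above every untreated library of its line in both lines, below the 21% of the 14303 genes. The mean log2(CPM + 1) of the set after lactofen was 5.01, 5.12 and 5.50 in resistant and 5.99, 5.14 and 6.08 in susceptible libraries. These overlapped the untreated libraries of batch 3 in both lines, in the susceptible line through lactofen library 5. The low level of the batch 3 controls enters this comparison. Against them d after lactofen had a median of 0.59, while against the controls of batches 1 and 2 it was -0.36 and -0.30, beside -0.38 and -0.39 over the 14303 genes. For the 2,4-D-high set the median d after lactofen was -1.76, -1.72 and -1.46 against the controls of batches 1, 2 and 3. Without the untreated resistant library 8 of batch 3, 52 genes of the 2,4-D-low set rose and 38 of the 2,4-D-high set fell. In that fit 6950 of 20958 genes tested rose and 6729 fell, beside 6948 and 6977 of 20645 with all libraries. Without the untreated resistant library 4 or the untreated susceptible library 5, 5 genes of the 2,4-D-low set fell. Of all genes tested, 6834 and 6587 fell in those fits.

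Among single genes, AmaPaChr11Ag180540 of the 2,4-D-high set, on chromosome 11, was nearly absent after lactofen. It had 0, 0.0478 and 0.0881 CPM in resistant and 0.116, 0 and 0.043 CPM in susceptible plants after lactofen, against 4.18, 2.26 and 1.81 CPM in untreated resistant and 2.93, 4.67 and 1.49 CPM in untreated susceptible plants. No treated library held more than 6 counts, so the size of the change (log2 -5.84 ± 0.57 SE, edgeR adjusted p = 4.55e-11) rests on very few reads, and all 6 lactofen libraries lay below all 6 controls.

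AmaPaChr13Ag212250, also of the 2,4-D-high set, had 0.8, 0.0956 and 1.5 CPM in resistant and 0.116, 0.134 and 0 CPM in susceptible plants after lactofen, against 9.97, 6.57 and 16.3 CPM in untreated resistant and 7.55, 5.75 and 10.8 CPM in untreated susceptible plants. It fell by 5.26 ± 0.66 on the log2 scale (SE, edgeR adjusted p = 1.3e-08), with no overlap between the groups. In susceptible plants the lactofen libraries held at most 0.134 CPM, so the size of this change rests on few reads. The lead gene AmaPaChr15Ag234680 had 64.4, 81.7 and 30.5 CPM in resistant and 14.5, 40.9 and 14.9 CPM in susceptible plants after lactofen, against 266, 296 and 239 CPM in untreated resistant and 277, 276 and 386 CPM in untreated susceptible plants. It fell by 3.01 ± 0.28 (log2, SE, edgeR adjusted p = 2.08e-11), and AmaPaChr14Ag214620 fell by 2.82 ± 0.39 (adjusted p = 7.99e-08).

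The largest rise after lactofen was in AmaPaChr08Ag145150 of the 2,4-D-low set, on chromosome 8. It had 74.2, 131 and 215 CPM in resistant and 650.3, 112 and 655 CPM in susceptible plants after lactofen, against 9.15, 39.3 and 17.1 CPM in untreated resistant and 8.58, 16.3 and 4.65 CPM in untreated susceptible plants. The log2 change was 4.13 ± 0.61 (SE, edgeR adjusted p = 2.97e-07) without overlap between the groups, and the susceptible library 5 was well under the other two.

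AmaPaChr12Ag198960 of the same set had 18.3, 20.4 and 44.5 CPM in resistant and 116, 167 and 78.5 CPM in susceptible plants after lactofen, against 2.35, 5.59 and 2.36 CPM in untreated resistant and 1.81, 5.48 and 10.6 CPM in untreated susceptible plants. It rose by 3.65 ± 0.74 (log2, SE, edgeR adjusted p = 4.55e-05), and here the susceptible library 5 was the highest. The lead gene AmaPaChr04Ag080260 rose by 1.69 ± 0.35 (adjusted p = 5.59e-05), with 71.4, 109 and 109.9 CPM in resistant and 190.3, 109 and 187 CPM in susceptible plants after lactofen, against 30.0, 76.0 and 13.1 CPM in untreated resistant and 24.9, 65.2 and 30.8 CPM in untreated susceptible plants. AmaPaChr03Ag059410 was not called, at 0.70 ± 0.36 (adjusted p = 0.080).

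The 3 genes of the 2,4-D-high set that rose after lactofen were named after their values were seen. AmaPaChr16Ag244610 had 141, 104 and 138 CPM in resistant and 35.1, 25.6 and 92.2 CPM in susceptible plants after lactofen, against 18.4, 9.17 and 12.6 CPM in untreated resistant and 8.88, 7.02 and 6.70 CPM in untreated susceptible plants (log2 2.95 ± 0.32 SE, edgeR adjusted p = 5.81e-10). AmaPaChr15Ag228270 rose by 2.78 ± 0.74 (adjusted p = 0.0012) and AmaPaChr06Ag104870 by 1.62 ± 0.49 (adjusted p = 0.0037). In susceptible plants these 2 genes rested on library 5, with 91.3 and 55.7 CPM, against 3.63 and 3.40 CPM for the first gene and 4.37 and 2.97 CPM for the second in the other libraries. Without that library 1 of the 3 genes was called. AmaPaChr15Ag228270 was called neither after 2,4-D nor after chlorsulfuron (edgeR adjusted p = 0.23 and 0.17).

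A difference between the lines in the lactofen response was called in 1 of the 186 genes. AmaPaChr10Ag172700 of the 2,4-D-low set had 7.02, 8.80 and 15.5 CPM in resistant and 103, 11.3 and 141 CPM in susceptible plants after lactofen, against 34.8, 17.2 and 22.9 CPM in untreated resistant and 18.8, 13.9 and 35.1 CPM in untreated susceptible plants. It fell by 1.37 ± 0.54 in resistant plants and rose by 1.92 ± 0.55 in susceptible plants (log2, SE), and the resistant minus the susceptible response was -3.28 ± 0.77 (edgeR interaction test, adjusted p = 0.017). In susceptible plants library 5 lay below the controls' range. The call was lost in the fit of batch 3 alone (adjusted p = 0.494), and without resistant lactofen library 1 (adjusted p = 0.058), untreated susceptible library 5 (0.056), susceptible lactofen library 3 (0.059) or susceptible lactofen library 7 (0.063). Of all genes tested, 1.09% had a higher and 1.18% a lower response in resistant plants. The fit of batch 3 alone called 4 of 19689 genes with a higher and 3 with a lower response, so few calls of any gene remained there. The median of the line difference was -0.56 over the 2,4-D-low set, negative in 115 of 129 genes, 0.15 over the 2,4-D-high set and -0.05 over all genes tested. In the 2,4-D-high set 0 genes were called by edgeR, 12 had an unadjusted p under 0.05, and DESeq2 called 5. In the 2,4-D-low set 15 had an unadjusted p under 0.05, and DESeq2 called 1. Of 23894 genes in the DESeq2 fit, 471 were called with a higher and 467 with a lower response in resistant plants. Genes with an unadjusted p under 0.05 were not counted over all genes, here or below. Without the susceptible lactofen library 5, edgeR called 13 genes of the 2,4-D-high and 9 of the 2,4-D-low set, beside 12.7% of all genes tested in that fit and 2.26% with all libraries. Without resistant lactofen library 1 or 8 it called 1 gene of the 2,4-D-high set. Of all genes tested, the first fit called 115 with a higher and 94 with a lower response in resistant plants. The second fit called 324 and 458.

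**Figure D4:**
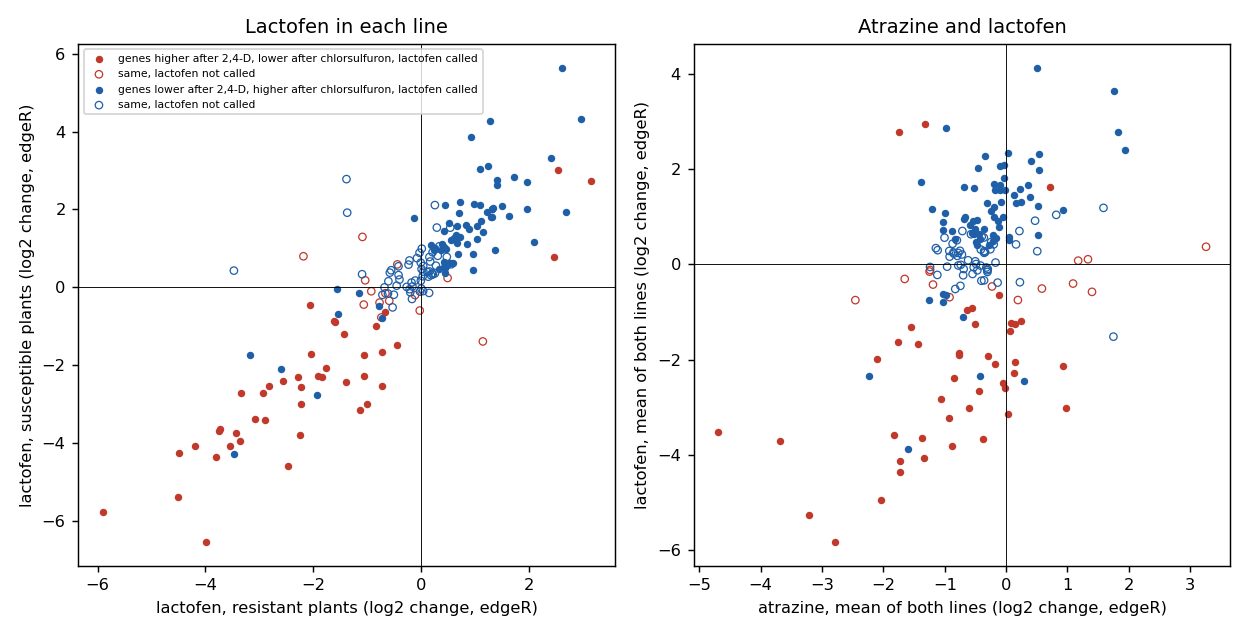
Left, log2 change after lactofen in resistant (x axis) and susceptible plants (y axis). Right, log2 change after atrazine (x axis) and after lactofen (y axis), averaged over both lines. Each point is 1 of the 186 genes, red for the 2,4-D-high set and blue for the 2,4-D-low set, filled where the lactofen change averaged over both lines was called. Most red points lie at negative lactofen values, down to -5.84, and blue points spread from -3.87 to 4.13.

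Atrazine shared its untreated libraries with chlorsulfuron, which the choice used, so its values stand beside those above without being independent of them. In the 2,4-D-high set 27 of 57 genes fell and 7 rose, with a median log2 change of -0.63 and a range from -4.70 to 3.26. In the 2,4-D-low set 43 of 129 genes fell and 7 rose, with a median of -0.40. The shares were 47.4% and 12.3% in the 2,4-D-high set, and 33.3% and 5.43% in the 2,4-D-low set. Of all genes tested, 23% fell and 26.6% rose, with a median of 0.04. Of the 14303 genes 27% fell and 29.3% rose, with a median of 0.02. With these controls the 2,4-D-low set had more falls than rises. Its median d after atrazine was -0.60, -0.50 and 0.33 against the controls of batches 1, 2 and 3, with 107 of 129 genes negative against batch 2 and 89 positive against batch 3, beside -0.07, -0.09 and 0.22 over the 14303 genes. For the 2,4-D-high set it was -0.96, -0.85 and -0.53. Of the 57 genes, 20 were lower after both atrazine and lactofen and 18 were lower after lactofen without a call after atrazine. Of the 129 genes, 47 rose after lactofen without a call after atrazine, 25 fell after atrazine without a call after lactofen, and 11 fell after atrazine and rose after lactofen. Shares of all genes in these joint classes were not counted, so the joint counts are a description only. After lactofen alone 33.8% of all genes tested fell and 33.7% rose. Every atrazine library lay below every untreated library of its line, in both lines, for 25 genes of the 2,4-D-high set and 41 of the 2,4-D-low set, beside 24% of the 14303 genes. Without the 3 susceptible libraries numbered 7 of batch 2, 26 genes of the 2,4-D-high set fell and 5 rose. In the 2,4-D-low set 36 genes fell and 3 rose. Of 20906 genes tested in that fit, 4223 fell and 5003 rose, beside 4754 and 5486 of 20645 with all libraries. The 7 rises of the 2,4-D-low set became 3 without resistant or susceptible atrazine library 5, untreated resistant library 7 or untreated susceptible library 6. They became 4 without untreated resistant library 8. Those fits called 4780 to 5345 of all genes tested higher.

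The strongest rise after atrazine was in AmaPaChr02Ag045180 of the 2,4-D-high set, on chromosome 2. It had 1018, 1064 and 1168 CPM in resistant and 962, 1148 and 1074 CPM in susceptible plants after atrazine, against 78.7, 168 and 130.2 CPM in untreated resistant and 125, 115 and 97.8 CPM in untreated susceptible plants (log2 3.26 ± 0.55 SE, edgeR adjusted p = 8.01e-06). The 6 atrazine libraries were close together and far above every control. This gene was called neither after 2,4-D nor after chlorsulfuron (edgeR adjusted p = 0.21 and 0.27). After lactofen its libraries ran from 10.1 to 397 CPM with no call (log2 0.37 ± 0.51 SE, adjusted p = 0.54).

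The other gene named for a rise, AmaPaChr01Ag019380 of the 2,4-D-low set, was variable between plants. After 2,4-D and after chlorsulfuron it was not called (edgeR adjusted p = 0.060 and 0.085). It had 114, 12.7 and 26.3 CPM in resistant and 34.4, 6.10 and 14.0 CPM in susceptible plants after atrazine, against 14.7, 8.66 and 15.2 CPM in untreated resistant and 5.72, 4.63 and 5.70 CPM in untreated susceptible plants. The resistant groups overlapped, the log2 change was 1.94 ± 0.74 (SE, edgeR adjusted p = 0.028), and the call was lost in 5 of 20 alternatives. Those were the fits without resistant atrazine library 5 (adjusted p = 0.17), susceptible atrazine library 5 (0.099), untreated resistant library 7 (0.060), untreated susceptible library 6 (0.057) or the 3 susceptible libraries numbered 7 (0.057).

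The largest falls after atrazine were in the 2,4-D-high set. AmaPaChr07Ag130790, on chromosome 7, had 0.0731, 0.222 and 0.0352 CPM in resistant and 0.0653, 0.207 and 0.223 CPM in susceptible plants after atrazine, against 3.67, 1.54 and 7.17 CPM in untreated resistant and 3.00, 4.39 and 3.17 CPM in untreated susceptible plants (log2 -4.70 ± 0.51 SE, edgeR adjusted p = 2.61e-09). It was similarly low after chlorsulfuron, at 0.0955 to 0.725 CPM in the 6 libraries. With at most 0.223 CPM after atrazine, the size of its change rests on few reads. AmaPaChr06Ag108990 had 1.76, 1.64 and 2.11 CPM in resistant and 3.86, 6.27 and 7.03 CPM in susceptible plants after atrazine, against 26.5, 11.6 and 73.4 CPM in untreated resistant and 71.6, 63.4 and 29.1 CPM in untreated susceptible plants (log2 -3.68 ± 0.69 SE, adjusted p = 3.68e-05). Groups of both genes were fully apart. AmaPaChr06Ag108990 was called neither after 2,4-D nor after chlorsulfuron (edgeR adjusted p = 0.18 and 0.073). The lead genes of the 2,4-D-high set parted after atrazine: AmaPaChr15Ag234680 rose by 0.98 ± 0.27 (adjusted p = 0.0025) and AmaPaChr14Ag214620 fell by 1.07 ± 0.36 (adjusted p = 0.014).

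After mesotrione, which shared its untreated libraries with 2,4-D, edgeR called 0 genes in either set, beside 0.00484% of all genes tested called higher and 0.063% lower. An unadjusted p under 0.05 was found for 8 genes of the 2,4-D-high and 9 of the 2,4-D-low set, and DESeq2 called 1 and 0. Of 23894 genes in the DESeq2 fit, 32 were called higher and 104 lower after mesotrione. Without the untreated resistant library 5 of batch 1, edgeR called 1 gene of the 2,4-D-low set. In that fit it called 18 of 20936 genes tested higher and 62 lower. The median log2 change was 0.17 in the 2,4-D-high and -0.12 in the 2,4-D-low set. No gene of either set had all mesotrione libraries on one side of all controls in both lines, beside 0.937% of the 14303 genes above and 0.378% below. The mean log2(CPM + 1) of the 2,4-D-low set after mesotrione was 5.30, 5.78 and 6.05 in resistant and 5.89, 5.82 and 5.61 in susceptible libraries. The resistant ones lay within the range of their controls, and the susceptible library 7, at 5.61, lay below its controls. The 2,4-D-high set had 4.62, 4.31 and 4.71 in resistant and 5.07, 4.73 and 5.21 in susceptible libraries after mesotrione, and the susceptible ones all lay above their controls, the lowest by less than 0.01.

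Between untreated resistant and susceptible plants, over the mean of the 3 batches, edgeR called 0 genes in either set, beside 1.91% of all genes tested called higher and 1.14% lower in the resistant line. The smallest adjusted p was 0.095 in the 2,4-D-high and 0.055 in the 2,4-D-low set. An unadjusted p under 0.05 was found for 8 genes in each set, and DESeq2 called 0 and 1. Of 23894 genes in the DESeq2 fit, 659 were called higher and 471 lower in the untreated resistant line. The median of the difference, resistant minus susceptible, was -0.06 (log2) in both sets. Without the untreated resistant library 8 of batch 3, 1 gene of the 2,4-D-high set was called. In the 2,4-D-low set 1 gene was called without the untreated resistant library 7 of batch 1 or 8 of batch 2. It also had 1 call without the untreated susceptible library 3 or 5 of batch 3. Over these fits edgeR called 310 to 387 of all genes tested higher and 189 to 237 lower. For the difference between the lines in the response to 2,4-D, chlorsulfuron, atrazine or mesotrione, edgeR called 0 of the 186 genes in each case. Of all genes tested 0% were called for 2,4-D and for chlorsulfuron, 0.00969% had a lower response in resistant plants to atrazine, and 0.126% to mesotrione. An unadjusted p under 0.05 was found for 0 genes with 2,4-D, 4 with chlorsulfuron, 3 with atrazine and 2 with mesotrione.

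By the leading digits of the identifiers, the genes lay on all 17 chromosomes. Of the 129 genes of the 2,4-D-low set, 19 (14.7%) were on chromosome 1, which held 10.5% of the 14303 genes. The 2,4-D-high set had 7 genes on chromosome 3, its highest number, and 0 on chromosome 17. In the order of the identifiers, 3 pairs of these genes stood within 3 steps of each other. AmaPaChr01Ag022950 of the 2,4-D-low set stood next to AmaPaChr01Ag022960 of the 2,4-D-high set, AmaPaChr11Ag180520 of the 2,4-D-low set stood 2 steps from AmaPaChr11Ag180540, and AmaPaChr09Ag160490 and AmaPaChr09Ag160520 of the 2,4-D-high set stood 3 steps apart.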

How the data were processed

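The authors deposited a table of raw counts, whole numbers with a row for each gene model and a column for each library. Stranded polyA libraries were made from leaf RNA and read from both ends, per the labels' protocols. Trimmomatic, FastQC, STAR and DESeq2 are named in the submitters' processing notes, without roles or versions. Genome build, annotation and strand setting: not given in the sources used here, so overlapping, antisense or near-identical genes could share reads. Of the counts above 0, 99.1% were even, as when both mates of a pair are counted. A row without a gene name was left out, and its total was 0. Depth was 16583010 to 72979429 counts per library.

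CPM here is the count divided by the library total, times 1000000, and d uses a pseudocount of 1. Tests used edgeR 4.0.16 (R 4.3.3) and its quasi-likelihood F test on the unscaled counts, with TMM factors, filterByExpr by group, which left 20645 genes, robust dispersions, 48 libraries in 1 fit with 16 group means (32 residual degrees of freedom), and Benjamini-Hochberg adjustment over all genes kept. Log2 changes and SE come from that fit. It was tested on simulated data. DESeq2 1.42.0, other scalings, no filter on low counts, fragment counts (halved and rounded up), a plant block, 1 batch at a time and leaving out each library were alternatives.

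The genes, their 2 directions and the lists were chosen with earlier results of these data known. With no table of names, the rule for named genes took the 2 genes per set with the largest smaller d, and at most 2 called genes with the largest positive and negative change after lactofen, after atrazine, after mesotrione, between untreated lines and for the line difference after lactofen. Lists chosen by gene product were not applied. The labels do not say that libraries of a group came from separate growth runs, so p-values measure the spread between these libraries. The main tests fitted group means without a plant term, and only the alternative with a plant block used pairs. Same plant numbers, taken from the titles, were checked as pairs by the correlation of their deviations from group means. The value reached at least 0.148 in each pair for 9 of 10 treated and untreated pairs of groups, which were taken as paired (after chlorsulfuron in susceptible plants a pair of different numbers reached 0.431, above the lowest same-number value of 0.220), and reached -0.212 in susceptible lactofen plants, which were not.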

Additional observations from a re-analysis of the deposited data

Results flagged for a closer look

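The response to lactofen of AmaPaChr10Ag172700, a gene lower after 2,4-D and higher after chlorsulfuron, differed between the lines by -3.28 (log2, resistant minus susceptible; edgeR interaction test, adjusted p = 0.017). It was lower than in untreated plants in the resistant line (-1.37) and higher in the susceptible line (1.92). The call was lost in 5 of 19 alternatives: in the fit of batch 3 alone (adjusted p = 0.494) and without 1 of 4 single libraries (adjusted p = 0.056 to 0.063). For this difference the fit of batch 3 alone called 4 of 19689 genes higher and 3 lower. Leaving out each library in turn gave -3.81 to -2.75.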

How the results depend on the processing

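The mesotrione count of the 2,4-D-high set (0) was 1 with DESeq2. The count between untreated lines in the 2,4-D-low set (0) was 1 with DESeq2 size factors, 1 with DESeq2 and 1 with fragment counts. For the line difference after lactofen, the 2,4-D-high set (0) had 1 call with DESeq2 size factors, 5 with DESeq2 and 2 with the replicate block. The 2,4-D-low set (1) had 0 in batch 3 alone. Of all genes, 254 were called higher and 197 lower with DESeq2 size factors, and 545 and 524 with the replicate block. In batch 3 alone 4 were called higher and 3 lower. After atrazine the rises of the 2,4-D-low set (7) were 3 without the susceptible libraries numbered 7, a choice made after seeing the data. In that fit 5003 of 20906 genes tested rose, beside 5486 of 20645 with all libraries. The rule found 103 and 7 genes against batch 3 controls, 35 and 82 with each line past the threshold, and 25 and 19 at a threshold of 1; with TMM-scaled CPM it found 59 and 127, sharing 50 and 98 with the main sets. With the plant number as a block, lactofen gave 42 falls and 2 rises in the 2,4-D-high set and 66 rises and 9 falls in the 2,4-D-low set, and the block changed no other count by over 1.5 times; no paired analysis was possible for the untreated lines because their plants differ. Leaving out each library in turn gave, after lactofen, 38 to 42 falls and 1 to 3 rises in the 2,4-D-high set and 50 to 73 rises and 5 to 10 falls in the 2,4-D-low set. After atrazine it gave 24 to 28 falls and 6 to 7 rises, and 38 to 56 falls and 3 to 7 rises. The line difference after lactofen had 0 to 13 and 0 to 9 calls, mesotrione 0 to 0 and 0 to 1, and untreated lines 0 to 1 in both sets. The rule found 47 to 88 and 89 to 202 genes. AmaPaChr01Ag019380 after atrazine ran from 1.25 to 2.16 (log2) and AmaPaChr10Ag172700 from -3.81 to -2.75. The cause of these changes was not tested. With 3 libraries per group and counts near 0 in some genes, small changes were not detectable, and the sign of the median d of the 2,4-D-low set after 2,4-D, atrazine and lactofen differed with the batch of the untreated libraries.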
